A study of Mus musculus with 12 samples.

Results

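Proteasome subunit genes were followed in primary mouse adult fibroblasts (MAFs), wild-type cells grown out of biopsies of C57BL6/j mice, after 24 h with 100 µM thymol or with the solvent DMSO alone. Thymol is a phenolic monoterpene of thyme and oregano, and it was dissolved in DMSO, so both groups received the solvent. Each group held 6 libraries of QuantSeq, a 3′ mRNA sequencing method in which each transcript yields about 1 read at its 3′ end, so that levels of genes were compared without scaling by length. The sources used here do not say whether the libraries came from separate animals or cultures, so p-values measure the spread between these libraries, which may be technical. The libraries held 5435985 to 9049796 reads, and the 2 groups overlapped in depth. DMSO libraries held 6240828 to 8064382 reads. Thymol replicate 5 held 9049796, and the other thymol libraries were mostly shallower, at 5435985 to 6585162. Mean reads per library given below are not scaled for depth.

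The genes were chosen by symbol: Psma, Psmb, Psmc or Psmd followed by a digit, without the immunoproteasome genes *Psmb8*, *Psmb9* and *Psmb10*. This gave 35 of the 10697 genes in the table. One of the 35, *Psmc3ip*, carries the letters because its product binds the protein of *Psmc3*, but it encodes a cofactor of homologous recombination and not a proteasome subunit. It was set apart, which left 34 genes: 14 of the core particle and 20 of the regulatory particle. All of the constitutive subunits with these symbols were in the table. The α subunit *Psma8* and the β subunit *Psmb11*, known from testis and thymus, were not among the genes retained by the authors.

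The proteasome is the protease that degrades proteins tagged with ubiquitin. Its core particle is a barrel of α and β rings with the proteolytic sites inside, on the subunits encoded by *Psmb5*, *Psmb6* and *Psmb7*. The regulatory particle caps the barrel, binds ubiquitin and unfolds the substrate. Its base is built around a ring of ATPases encoded by the *Psmc* genes, and its lid removes the ubiquitin chain. Because the subunits are needed together, their genes are known to respond as a group to proteasome impairment, mainly through the transcription factor NRF1 (*Nfe2l1*).

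No proteasome gene passed the test between thymol and DMSO, in the core or in the regulatory particle. In limma, 0 of 34 passed a Benjamini-Hochberg adjusted p-value of 0.05, where 238 of all 10697 genes did (2.22%; 0.654% higher and 1.57% lower with thymol). At an unadjusted p-value under 0.05 the count was 0 of 34, against 11.8% of all genes, and limma's voom on the recovered reads also called 0. The thymol and DMSO libraries overlapped for every proteasome gene, so 0 of 34 separated the groups completely, against 1.68% of all genes. The smallest adjusted p-value among them was that of *Psma5* (adjusted p = 0.469 in limma). Log2 fold changes, thymol minus DMSO, ran from -0.26 to 0.14, and their median was 0.028 beside 0.0026 for all genes. Of the 34 genes, 22 were nominally higher (64.7%, beside 50.9% of all genes) and 12 nominally lower.

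A p-value above the threshold does not show that the groups were alike, so the intervals are given. The median standard error of the 34 log2 fold changes was 0.069. It was 0.12 for all genes and 0.086 for genes with a mean level above 5 log2 CPM (the unit explained below). The 95% interval of the difference lay within 0.5 on the log2 scale in either direction for 33 of the 34 genes, and within 0.25 for 27. The exception at 0.5 was *Psma5*, whose interval reached -0.54. Over all 10697 genes, 7515 intervals lay within 0.5 and 2774 within 0.25. Of the 5394 genes with a mean above 5 log2 CPM, 5224 lay within 0.5 and 2769 within 0.25. The count of 33 of 34 is thus near the share of genes at such levels. At mean levels within the range of these 34 genes, 184 genes passed the adjusted threshold, and the smallest absolute log2 fold change among those was 0.18. No smaller difference passed the test at these levels, but 0.18 is not a limit of detection for each gene. Standard errors ran from 0.047 for *Psmd8* to 0.14 for *Psma5*, and *Psma5*, at -0.26, did not pass.

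**Figure D1:**
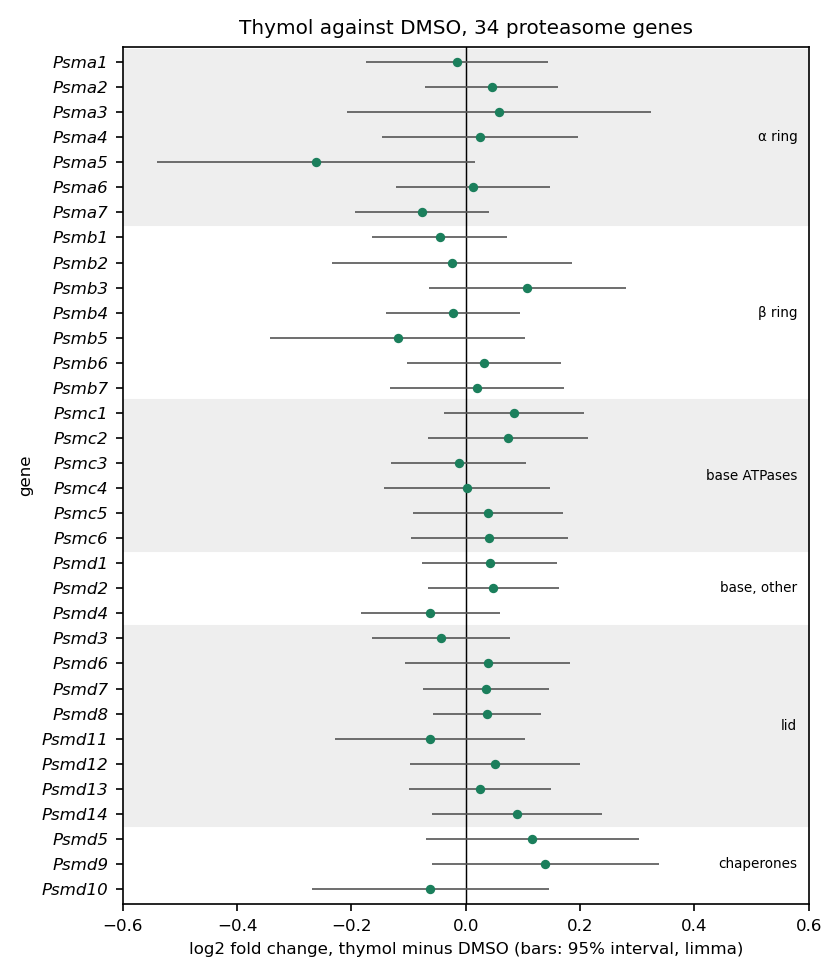
Log2 fold change (horizontal axis, thymol minus DMSO) of each of the 34 proteasome genes (vertical axis), grouped by place in the complex. Points are limma estimates from 6 libraries a group and bars are 95% intervals: all 34 bars cross 0, and the estimates run from -0.26 for Psma5 to 0.14 for Psmd9.

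The α ring gates the entry to the core and holds 7 measured genes. Their median log2 fold change was 0.012, with 4 nominally higher and 3 lower. *Psma5* (chr3:108256926-108279974, plus strand) had the lowest level of the 34 genes and the most negative estimate. Its lowest, median and highest values were 4.31, 4.78 and 4.91 log2 CPM (reads scaled to the library total, the unit of all levels here) with DMSO and 4.20, 4.45 and 4.64 with thymol. The thymol values sat towards the low end, but the groups overlapped. The difference was -0.26 ± 0.14 (SE, 95% interval -0.54 to 0.017). Not scaled for depth, the mean was 184 reads in a DMSO library and 139 in a thymol library. *Psma7* (chr2:180036374-180042433, minus strand), the highest gene of the α ring, ran from 8.20 through a median of 8.40 to 8.46 log2 CPM with DMSO and from 8.13 through 8.29 to 8.44 with thymol. These ranges covered each other almost entirely, and the difference was -0.077 ± 0.059 (SE, adjusted p = 0.693 in limma). The other α subunits, *Psma1*, *Psma2*, *Psma3*, *Psma4* and *Psma6*, had log2 fold changes between -0.016 and 0.058.

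The β ring carries the active sites, and its 7 measured genes had a median log2 fold change of -0.022, with 3 nominally higher and 4 lower. *Psmb6* (chr11:70525367-70527858, plus strand) encodes β1, which cleaves after acidic residues. It ran from 7.19 through a median of 7.34 to 7.53 log2 CPM with DMSO and from 7.20 through 7.36 to 7.54 with thymol. These ranges were nearly identical, and the log2 fold change was 0.031 ± 0.067 (SE, adjusted p = 0.93 in limma). *Psmb7* (chr2:38588036-38644087, minus strand) encodes β2, the trypsin-like subunit. It ran from 6.54 through 6.62 to 6.90 with DMSO and from 6.56 through 6.69 to 6.82 with thymol, a log2 fold change of 0.020 ± 0.076 (SE, adjusted p = 0.967 in limma). *Psmb5* (chr14:54614119-54618022, minus strand) encodes β5, the chymotrypsin-like subunit and the main target of proteasome inhibitor drugs. Its values were 5.19, 5.55 and 5.83 with DMSO and 5.05, 5.42 and 5.71 with thymol. The thymol libraries were nominally lower with wide overlap, by -0.12 ± 0.11 (SE, 95% interval -0.34 to 0.10, adjusted p = 0.77 in limma). This value was -0.19 when DMSO replicate 2 was left out and -0.046 when thymol replicate 4 was.

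Of the β subunits without an active site, *Psmb3* (chr11:97703399-97713500, plus strand) had the highest estimate of the core particle. Its values were 5.92, 6.10 and 6.21 log2 CPM with DMSO and 6.02, 6.18 and 6.42 with thymol. Of the thymol libraries, 3 lay above every DMSO library and 3 lay among them, and the log2 fold change was 0.11 ± 0.086 (SE, adjusted p = 0.709 in limma). *Psmb1*, *Psmb2* and *Psmb4* lay between -0.046 and -0.022. Over the core particle as a whole, 7 genes were nominally higher and 7 lower, with a median log2 fold change of -0.0016.

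The base of the regulatory particle also held 0 genes past the threshold, where 2.22% of all genes passed. Of the 6 ATPase genes *Psmc1* to *Psmc6*, 5 were nominally higher, with a median log2 fold change of 0.040 and 95% intervals that all lay between -0.14 and 0.21. *Psmc1* (chr12:100110154-100123405, plus strand) had the smallest p-value of these. Its values were 7.65, 7.94 and 8.02 log2 CPM with DMSO and 7.86, 8.02 and 8.08 with thymol. Only 1 DMSO library, replicate 4, lay far below the rest, and the log2 fold change was 0.085 ± 0.061 (SE, adjusted p = 0.66 in limma). The base scaffolds *Psmd1* and *Psmd2* had log2 fold changes of 0.042 and 0.048, and the ubiquitin receptor *Psmd4* one of -0.062.

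The lid was represented by 8 genes, with a median log2 fold change of 0.037, 6 of them nominally higher. *Psmd14*, the deubiquitinase of the lid, had a log2 fold change of 0.090 ± 0.074 (SE, adjusted p = 0.723 in limma). *Psmd8* (chr7:29174188-29180701, minus strand), a lid subunit, was the highest of all 34 genes and the most tightly measured. It ran from 9.40 through 9.52 to 9.55 log2 CPM with DMSO and from 9.49 through 9.53 to 9.60 with thymol. The difference of 0.037 ± 0.047 (SE) had a 95% interval from -0.057 to 0.13. Not scaled for depth, the mean was 5124 reads per library with DMSO and 4840 with thymol. *Psmd11* (chr11:80428615-80473248, plus strand) had the lowest estimate of the regulatory particle, -0.063 ± 0.083 (SE, adjusted p = 0.859 in limma). Its values were 6.29, 6.53 and 6.70 with DMSO and 6.24, 6.43 and 6.69 with thymol, which again overlapped.

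Some Psmd symbols belong to chaperones that assemble the base and leave the finished particle: *Psmd5*, *Psmd9* and *Psmd10*. They were less abundant than the subunits of the base, at mean levels of 6.16, 5.65 and 5.54 log2 CPM, where the ATPases lay between 6.99 and 8.09. *Psmd9* (chr5:123169413-123250131, plus strand) had the highest estimate of the 34 genes. Its values were 5.46, 5.56 and 5.75 log2 CPM with DMSO and 5.49, 5.73 and 5.98 with thymol, and the log2 fold change was 0.14 ± 0.099 (SE, adjusted p = 0.649 in limma). *Psmd5* (chr2:34849734-34874968, minus strand) ran from 5.81 through 6.12 to 6.29 with DMSO and from 5.89 through 6.23 to 6.48 with thymol, a log2 fold change of 0.12 ± 0.092 (SE, adjusted p = 0.706 in limma). The number of thymol libraries above every DMSO library was 3 for *Psmd9* and 2 for *Psmd5*, and the others lay among them. *Psmd10* had a log2 fold change of -0.062. Without these chaperones the regulatory particle held 17 genes with a median log2 fold change of 0.038, and with them 20 genes with a median of 0.039.

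**Figure D2:**
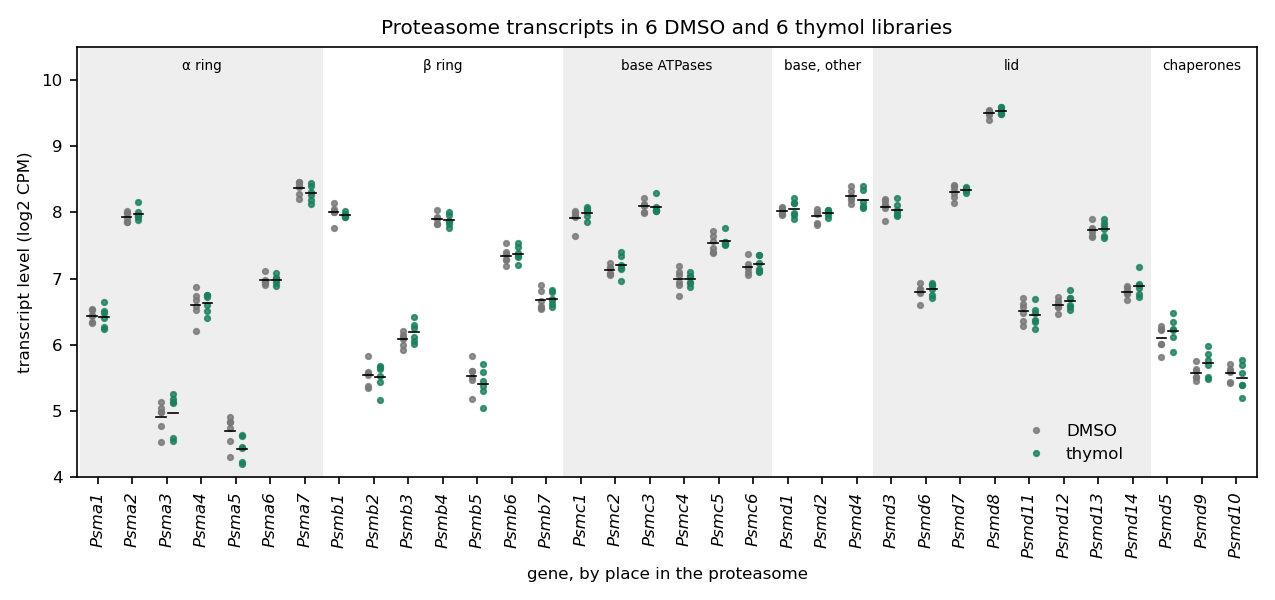
Transcript level (vertical axis, log2 CPM) of the 34 proteasome genes (horizontal axis, grouped by place in the complex) in each of 6 DMSO libraries (grey) and 6 thymol libraries (green), with group means as lines. The 2 groups overlap for every gene, and the levels of the genes themselves run from 4.56 for Psma5 to 9.52 for Psmd8.

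Summed over the genes, proteasome transcripts took overlapping shares of the reads in both groups. The 34 genes held 0.574% to 0.606% of the recovered reads with DMSO, with a median of 0.590%, and 0.587% to 0.599% with thymol, with a median of 0.594%. The 14 core genes averaged 6.64 ± 0.036 log2 CPM in DMSO libraries and 6.62 ± 0.037 in thymol libraries (SD, n = 6 each). The 20 regulatory particle genes averaged 7.33 ± 0.035 and 7.36 ± 0.027 log2 CPM (SD, n = 6 each). The groups overlapped on each of these measures. Per library, the mean of the 17 subunit genes of the regulatory particle stood above that of the core. The difference was 0.93 to 1.03 on the log2 scale with DMSO and 0.95 to 1.08 with thymol, so it also overlapped. It compares transcript levels and not amounts of the particles. The 3′ ends of *Psma3*, *Psma4*, *Psma5*, *Psmb3* and *Psmb5* in the core share sequence with other gene models, as described below. So do those of *Psmd1*, *Psmd2* and *Psmd11* in the regulatory particle. The part of this in the difference was not tested. No test was run on these sums and means, because the genes were chosen with earlier results of the same libraries known.

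**Figure D3:**
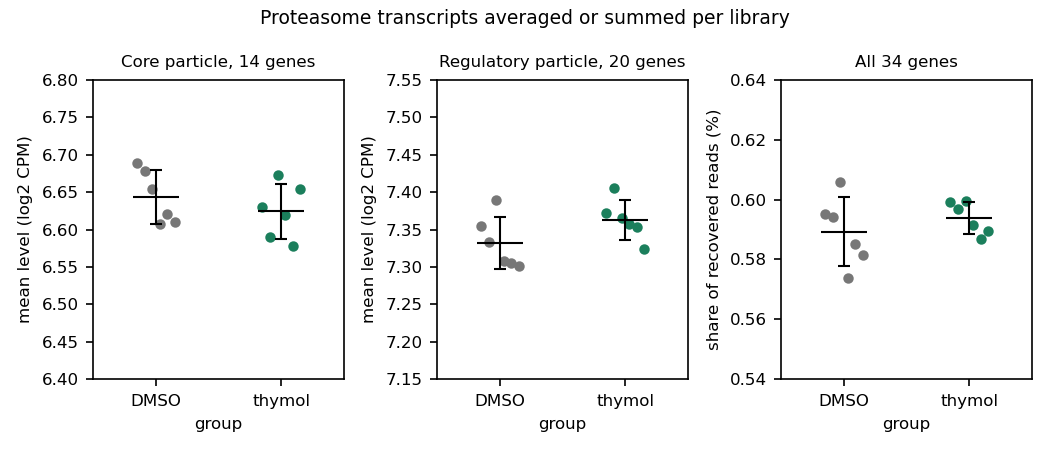
Mean level (log2 CPM) of the 14 core genes and the 20 regulatory particle genes and the share of recovered reads (%) of all 34, per library (points), with the group mean and SD as bars. The axes do not start at 0. The thymol and DMSO libraries overlap in each panel, with means of 6.62 and 6.64 for the core and 7.36 and 7.33 for the regulatory particle.

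The genes differed far more from each other than between the groups. Mean levels over the 12 libraries spanned 4.96 on the log2 scale, or 31.1-fold, from *Psma5* at 4.56 to *Psmd8* at 9.52 log2 CPM. The quartiles were 6.44 and 7.97 log2 CPM, 2.88-fold apart. The ATPases of the base spanned 2.14-fold, *Psmd1*, *Psmd2* and *Psmd4* 1.19-fold, and the chaperones *Psmd5*, *Psmd9* and *Psmd10* 1.54-fold. The α ring spanned 13.6-fold, the β ring 5.67-fold and the lid 8.26-fold. Within a group of 6 libraries the 34 genes varied little. Their median SD was 0.12 on the log2 scale, from 0.052 for *Psmd8* to 0.27 for *Psma3*, beside 0.14 for all genes with a mean above 5 log2 CPM.

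Some of these levels were uncertain because of near-identical copies elsewhere in the genome. The proteasome genes have processed pseudogenes, copies of the mRNA inserted in the genome, and reads that match several places are usually not counted. The last 300 bases of the GENCODE vM21 protein-coding transcripts of each gene were therefore divided into words of 50 bases and searched in the transcripts of all other genes. For 23 of the 34 genes no word was shared, and for 8 genes at least 10% of the words were. The shared share was 57.8% for *Psma5*, 51.4% for *Psmb5*, 51.4% for *Psmb3*, 36.6% for *Psma3*, 35.1% for *Psmd2*, 25.8% for *Psma4* and 17.2% for *Psmd11*, in each case with annotated pseudogenes. For *Psmd1* it was 72.5%, with the gene model *Gm21972*, which is not annotated as a pseudogene. The 8 genes had a median level of 6.31 log2 CPM and the other 26 one of 7.28. Without the 8 genes the levels spanned 15.9-fold in place of 31.1-fold, from *Psmb2* at 5.53 to *Psmd8* at 9.52 log2 CPM. The α ring, which then lacks *Psma3*, *Psma4* and *Psma5*, spanned 3.72-fold, the β ring 5.45-fold and the lid 7.41-fold. The part of the shared sequence in the levels was not tested. The median log2 fold change was 0.034 in the 8 genes and 0.028 in the 26.

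**Figure D4:**
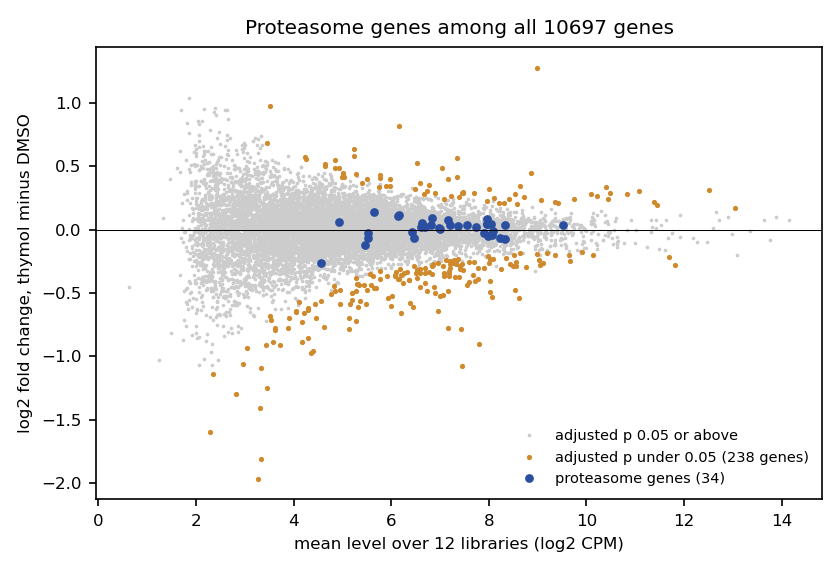
Log2 fold change (vertical axis, thymol minus DMSO) against the mean level over 12 libraries (horizontal axis, log2 CPM) for all 10697 genes (grey), the 238 genes with a limma adjusted p under 0.05 (orange) and the 34 proteasome genes (blue). The proteasome genes lie along 0, between -0.26 and 0.14, over levels at which other genes passed the test.

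The transcripts of NRF1 and of genes that process or degrade it were examined next. NRF1 is held in the endoplasmic reticulum, released by *Vcp*, *Ngly1* and *Ddi2*, and binds antioxidant response elements in proteasome promoters. Among 6 genes of this pathway, 0 passed the test (2.22% of all genes did), and the median log2 fold change was -0.054. *Nfe2l1* itself had a log2 fold change of -0.019 ± 0.059 (SE, adjusted p = 0.956 in limma), and *Nfe2l2*, which encodes the related factor NRF2, one of -0.086 ± 0.061 (SE, adjusted p = 0.654 in limma). *Sel1l*, an adaptor of the ubiquitin ligase that keeps NRF1 low, had the smallest p-value of the list (log2 fold change -0.12, adjusted p = 0.45 in limma). It ran from 7.31 through 7.51 to 7.57 log2 CPM with DMSO and from 7.19 through 7.39 to 7.48 with thymol, with overlap.

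The element was searched as TGACNNNGC on both strands, with N for any base, in the RefSeq promoter windows of GRCm38.p6, from 250 bases before to 50 after each annotated start. Windows were given for 28 of the 34 genes (30 windows). Of these, 5 windows (16.7%) held a match, beside 12.4% of all 32851 windows. The 5 sites are shown because they include the promoters of both *Psmb5* and *Psmb6*. Each is written 5′ to 3′ on the strand that carries the match, in lower case with the matching bases in capitals.
Psmb5, chr14:54618024-54618052, minus strand: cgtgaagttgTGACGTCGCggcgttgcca
Psmb6, chr11:70525338-70525366, plus strand: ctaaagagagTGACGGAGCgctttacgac
Psmd9, chr5:123228149-123228177, plus strand: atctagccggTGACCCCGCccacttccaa
Psmc6, chr14:45329587-45329615, minus strand: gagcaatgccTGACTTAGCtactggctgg
Psmd12, chr11:107479278-107479299, minus strand: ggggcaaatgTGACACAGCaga
The matches were centred 43, 5, 27, 223 and 243 bases before the RefSeq start of the window, in this order. The gene positions printed above are from GENCODE, and some of their starts differ. The *Psmd9* site lies inside the gene range printed for *Psmd9*. The 5 genes had log2 fold changes from -0.12 to 0.14 with a median of 0.041, and none passed the test. A match of letters is no evidence of binding.

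Genes that work with the proteasome were compared in the same fit. Of all genes 2.22% passed, so a count of 0 is near that share in lists this short. The core assembly factors *Psmg1* to *Psmg4* and *Pomp* held 0 genes past the threshold, with a median log2 fold change of 0.0066. *Psmg2* (chromosome 18), a chaperone of the α ring, had the smallest p-value, with 4.56, 4.76 and 4.96 log2 CPM for DMSO and 4.74, 4.99 and 5.30 for thymol. Its log2 fold change was 0.26 ± 0.12 (SE, adjusted p = 0.411 in limma). Of the activators *Psme1*, *Psme3* and *Psme4*, 0 passed. *Psme4*, which encodes an alternative cap of the core, had 0.061 ± 0.075 (SE, adjusted p = 0.842 in limma), with ranges of 6.44 to 6.77 and 6.56 to 6.84 around medians of 6.66 and 6.71.

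Of 9 further subunits and associated factors, 0 passed the test (2.22% of all genes did), with a median log2 fold change of -0.023. *Uchl5* (chr1:143777272-143807466, plus strand), a deubiquitinase bound to the regulatory particle, came nearest. Its values were 4.72, 4.97 and 5.14 log2 CPM with DMSO and 5.02, 5.24 and 5.65 with thymol. Of the thymol libraries, 5 lay above every DMSO library and replicate 4 lay among them, and the log2 fold change was 0.33 ± 0.12 (SE, 95% interval 0.092 to 0.56, adjusted p = 0.164 in limma). The next genes, like *Nfe2l1* and *Nfe2l2* above, were picked for their roles and not by their p-values. *Adrm1*, its receptor on the regulatory particle, had -0.092 ± 0.18 (SE), and *Usp14*, the other associated deubiquitinase, -0.070 ± 0.065 (SE). The small lid subunit *Sem1* had -0.023 ± 0.059 (SE).

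Genes for the supply and delivery of ubiquitin were compared in the same way. The ubiquitin-activating enzyme genes *Uba1* and *Uba6* had log2 fold changes of -0.049 ± 0.053 and -0.036 ± 0.076 (SE), and neither passed the test. The ubiquitin gene *Ubb* ran from 7.65 through 7.83 to 7.97 log2 CPM with DMSO and from 7.71 through 7.78 to 7.80 with thymol (log2 fold change -0.068, adjusted p = 0.743 in limma). Of 8 genes for shuttle receptors and the segregase *Vcp* with its cofactors, 0 passed (2.22% of all genes did). Their median log2 fold change was 0.0032. The smallest p-value was that of the shuttle receptor *Ubqln4*, with 4.84, 5.31 and 5.39 against 5.25, 5.39 and 5.72 (log2 fold change 0.20 ± 0.11, SE, adjusted p = 0.498 in limma).

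The immunoproteasome replaces the catalytic β subunits by *Psmb9*, *Psmb10* and *Psmb8*, and it is known from immune cells and from interferon-treated cells. None of these genes passed the test, where 2.22% of all genes did. *Psmb8* (chr17:34197721-34201454, plus strand), the counterpart of *Psmb5*, ran from 5.12 through a median of 5.40 to 5.50 log2 CPM with DMSO and from 5.38 through 5.58 to 5.88 with thymol. The groups overlapped at the lower thymol values, and the log2 fold change was 0.26 ± 0.11 (SE, 95% interval 0.044 to 0.47, adjusted p = 0.273 in limma). *Psmb9* (chr17:34181987-34187764, minus strand), the counterpart of *Psmb6*, ran from 3.45 through 3.85 to 4.22 and from 3.45 through 3.90 to 4.54, a log2 fold change of 0.072 ± 0.19 (SE). *Psmb10* (chr8:105935735-105938444, minus strand), the counterpart of *Psmb7*, ran from 5.00 through 5.30 to 5.59 and from 5.04 through 5.28 to 5.53, a log2 fold change of -0.035 ± 0.11 (SE).

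Transcripts of the immunoproteasome subunits stood below their constitutive counterparts in all 12 libraries for 2 of the 3 sites, and in the DMSO libraries for the other. Per library, the level of *Psmb9* was below that of *Psmb6* by a median of -3.47 on the log2 scale with DMSO and -3.48 with thymol, and that of *Psmb10* was below that of *Psmb7* by -1.35 and -1.34. The log2 ratio of *Psmb8* to *Psmb5* was negative in all 6 DMSO libraries, from -0.45 to -0.0079, and ran from -0.11 to 0.47 with thymol, where 1 library was below 0. This ratio was picked after its values were seen and was given no test, and 51.4% of the 3′ end words of *Psmb5* were shared with a pseudogene.

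**Figure D5:**
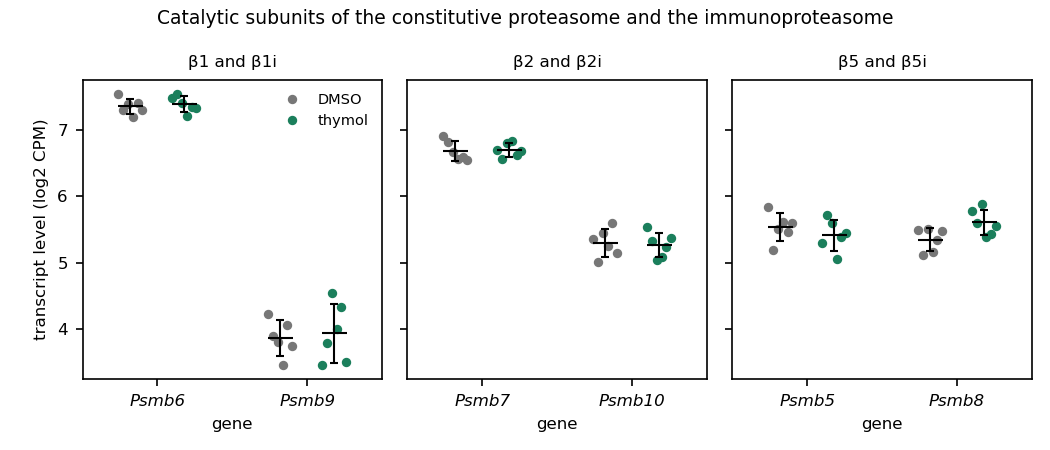
Transcript level (vertical axis, log2 CPM) of each constitutive catalytic subunit gene and its immunoproteasome counterpart in 6 DMSO (grey) and 6 thymol (green) libraries, with the group mean and SD as bars. Psmb9 lies far below Psmb6 and Psmb10 below Psmb7, while Psmb5 and Psmb8 lie between 5.05 and 5.88, with no gene passing the test between groups.

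The cultures held transcripts of more than 1 cell type. The table held 11 of 12 fibroblast markers (median level 8.35 log2 CPM) and 12 of 12 macrophage markers (median level 8.68). The macrophage markers together took 1.74% to 1.89% of the reads with DMSO and 1.75% to 2.06% with thymol. The fibroblast markers took 1.07% to 1.17% and 0.974% to 1.04%. These sums weigh the highest genes most. In DMSO libraries *Lyz2* had a mean of 88393 reads, beside 10118 for *C1qa*, and *Col1a1* and *Col1a2* had 28006 and 23684. Mean log2 levels were 8.82 with DMSO and 8.78 with thymol for the macrophage list, and 8.45 and 8.34 for the fibroblast list. Of the fibroblast markers 4 were nominally higher and 7 lower (median log2 fold change -0.12), and of the macrophage markers 5 and 7 (median -0.034). None passed the threshold as higher, *Cd68* coming nearest (0.18, adjusted p = 0.0546 in limma). Past it, all lower, were *Col1a1* (log2 fold change -0.28, adjusted p = 2.9e-05 in limma), *Col3a1* (-0.54, adjusted p = 4.42e-10 in limma) and the macrophage integrin *Itgam* (-0.31, adjusted p = 0.000705 in limma). Without the mean-variance trend *Col1a1* and *Itgam* kept these differences but no longer passed (adjusted p = 0.0662 in limma for each). In the odd-numbered libraries alone, a fit with fewer libraries in each group, they also did not pass, at -0.27 and -0.24. Few endothelial (2 of 8), keratinocyte (1 of 8) and skeletal muscle markers (2 of 8) were in the table, of which *Acta1* passed (-0.45, adjusted p = 5.03e-05 in limma). In bulk libraries, fewer cells of a type and less RNA per cell cannot be told apart, and the proteasome levels above are means over whatever cells were present. The part of the cell mixture in the *Psmb8* levels was not tested.

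*Psmc3ip*, set apart at the start, was a gene of low level. It ran from 1.45 through 1.87 to 2.74 log2 CPM with DMSO and from 2.11 through 2.30 to 2.51 with thymol, on a mean of 25.5 and 30.8 reads per library. The log2 fold change was 0.39 ± 0.30 (SE, adjusted p = 0.701 in limma), with overlapping groups. This value depends on the prior count added before the logarithm, which shrinks the change of a gene with so few reads.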

How the data were processed

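Per the labels and the study's methods, the authors aligned 3′ QuantSeq reads of 12 libraries to GRCm38 with STAR 2.5.3, counted them per gene with HTSeq 0.6.1, filtered genes by a minimum of 30 reads in 6 samples (98.0% of the genes in the table met it in the recovered reads), left out genes without annotation and scaled by TMM. The deposited values were log2 CPM with a prior count. Whole reads were recovered from the equal steps of the low values. Below 200 reads, 100% of the values came out whole to a tolerance of 0.02, and totals ran from 6240828 to 8064382 with DMSO and from 5435985 to 9049796 with thymol.

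The log2 values were tested with limma 3.58.1 in R 4.3.3 (eBayes with a mean-variance trend, 2 groups, two-sided, Benjamini-Hochberg over 10697 genes, threshold 0.05), because the deposited unit is log2 and not counts. The procedure was tested on simulated reads with changes larger than any estimate of the members. This simulation therefore does not cover differences as small as theirs. Positions are from GENCODE vM21 (GRCm38) and promoter sequences from RefSeq. The members and lists were chosen with earlier results of these data known. Values by library are given for the 6 members with the smallest p-values, the 3 catalytic subunits, the highest and lowest members by level and, in each particle, by fold change. Of the other lists they are given for the gene with the smallest p-value and the immunoproteasome genes, and marker genes are named where they passed the threshold. Alternatives covered the variance model, pseudocount, scaling, filter, voom, replicate numbers and leaving out each library. One gene of the ubiquitin list is not reported here.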

Additional observations from a re-analysis of the deposited data

Results flagged for a closer look

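In a group of 6 libraries, a library was looked at again where its gap to the nearest other library was a large part of the range of the group (Dixon's 95% criterion). Chance alone passes about 1 group in 20, or 5.3 of the 106 groups examined, and 6 passed. With DMSO, replicate 4 stood apart at 7.11 log2 CPM for *Psma6* (next 6.98), 7.65 for *Psmc1* (next 7.92) and 7.31 for *Sel1l* (next 7.49), and replicate 2 at 7.76 for *Psmb1* (next 8.01). With thymol, replicate 1 stood apart at 8.30 log2 CPM for *Psmc3* (next 8.08) and 7.76 for *Psmc5* (next 7.56).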

How the results depend on the processing

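The count of proteasome genes past the threshold was 0 under every alternative run, and the smallest adjusted p-value among them ran from 0.308, without DMSO replicate 5, to 0.757, in the odd-numbered libraries alone. *Psma5* alone reached an unadjusted p-value under 0.05 in 5 of them: without the mean-variance trend and without DMSO replicate 4, DMSO replicate 5, thymol replicate 4 or thymol replicate 6. The number of all genes past the threshold was 238 and fell to 57 without the mean-variance trend. In the odd-numbered libraries alone it was 70, but this fit had fewer libraries in each group, so the counts are not directly comparable. In the 12 fits that left out 1 library the number ran from 172 to 270. In the odd-numbered libraries 16 of the 34 genes were nominally higher with a median log2 fold change of -0.0098, *Psmb6* had -0.037, *Psmb7* -0.017 and *Psme4* -0.031, and *Psmb10* had 0.12 in the even-numbered ones. With 1 library left out, the median ran from 0.0084 (without DMSO replicate 4) to 0.038 over the 34 genes, from -0.016 to 0.013 over the core and from 0.020 to 0.047 over the regulatory particle. *Psmb6* then ran from -0.00095 to 0.068, *Psmb7* from -0.0068 to 0.065, *Psmb9* from -0.049 to 0.17 and *Psmb10* from -0.094 to 0.023, so that none of these had a stable direction. The other members with values by library kept their direction in these 12 fits but moved: *Psma5* from -0.34 to -0.22, *Psma7* from -0.11 to -0.046, *Psmb3* from 0.062 to 0.14, *Psmb5* from -0.19 to -0.046, *Psmc1* from 0.032 to 0.11, *Psmd5* from 0.060 to 0.18, *Psmd8* from 0.018 to 0.048, *Psmd9* from 0.086 to 0.19 and *Psmd11* from -0.11 to -0.022. *Col1a1* and *Itgam* no longer passed without the trend or in the odd-numbered libraries, and ran from -0.30 to -0.25 and from -0.33 to -0.27 with 1 library left out. The sources used here do not say what same-numbered libraries shared. Their deviations correlated from -0.051, for replicate 5, to 0.27, for replicate 1, over 5394 genes. With the replicate block the count of proteasome genes stayed 0 and that of all genes was 332. The causes of these shifts were not tested. Depth was lowest for *Psma5*, with a mean of 162 reads over the libraries.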
